A study of Mus musculus with 6 samples.

Results

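The cytosolic ribosomal protein genes were followed in cultured fetal hepatocytes lacking Cnot3, a subunit of the Cnot complex that shortens poly(A) tails. They were the genes whose annotated symbol is that of a small-subunit (Rps) or large-subunit (Rpl, Rplp) protein, with pseudogenes and the S6 kinases left out. Each gene was read from a probe set of the expression array that names it alone, and where there were several, from the one with the highest mean over the 6 arrays. This gave 50 of 18193 genes, of which 49 passed a filter on low values that left 16499 genes in all. The gene left out, Rps16, had a lone set under the 20th percentile on all 6 arrays. A further 31 symbols of the same kind, Rplp1, Rpl5 and Rps27a among them, were read only by sets that also name other genes, mostly pseudogenes, and are not members.

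The cells came from livers at embryonic day 16.5. Cnot3KO cells carried floxed Cnot3 alleles and Cre recombinase driven by the albumin promoter. Per the study, Cnot3 was only partly lost in these livers, and its suppression was efficient after the days in culture that preceded the arrays. Control cells are labelled as wild type, and the study's methods allow floxed alleles without Cre, or Cre with at most 1 floxed allele, among controls. Both were cultured with oncostatin M and dexamethasone and then taken before, or 6 or 12 h after, the addition of actinomycin D (ActD), an inhibitor of transcription. There was 1 array for each genotype and time, so that a value at a single time has no replicate, and p-values compare times of the same 2 sets of cells, not embryos.

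Ribosomal proteins form the shell around the ribosomal RNAs, and a cell needs each of them in about the amount of the others. Their mRNAs are among the most abundant and most stable in mammalian cells. Most begin with a C followed by a run of pyrimidines, the 5′ terminal oligopyrimidine (TOP) tract, through which the mTOR pathway and the binding protein Larp1 control their translation and stability. Fetal liver is a growing, blood-forming organ with a high demand for ribosomes. Because transcription was blocked, the time courses address how long these mRNAs lasted with and without Cnot3.

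The starts of 12 members are shown so that the tract can be seen in the genes on which the results turn. Windows run from 10 bases before to 20 bases from the RefSeq transcription start (assembly GRCm38.p6), 5′ to 3′. Capitals mark a run of a C followed by 4 or more C or T, counted from a C within 5 bases of the start. In Rpl14 and Rpl35 the run of C and T continues upstream of the capitals. The first 8 are the members whose base at the annotated start opens or continues such a run with a C at the start itself. The last 4 are Rps9, Rpl12, Rpl37 and Rps25, whose probe sets are described below.
Rps6, chr4:86857348-86857377, minus strand: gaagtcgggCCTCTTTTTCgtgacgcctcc
Rpl14, chr9:120571507-120571536, plus strand: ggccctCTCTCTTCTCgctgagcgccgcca
Rps27, chr3:90213629-90213658, minus strand: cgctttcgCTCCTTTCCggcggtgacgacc
Rpl35, chr2:39005112-39005141, minus strand: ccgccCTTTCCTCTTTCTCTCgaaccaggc
Rpl38, chr11:114668570-114668599, plus strand: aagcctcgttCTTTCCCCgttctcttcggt
Rplp2, chr7:141447641-141447670, plus strand: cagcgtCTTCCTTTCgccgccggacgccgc
Rps10, chr17:27635225-27635254, minus strand: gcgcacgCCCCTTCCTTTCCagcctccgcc
Rps18, chr17:33955646-33955675, minus strand: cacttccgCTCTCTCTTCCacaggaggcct
Rps9, chr7:3704031-3704060, plus strand: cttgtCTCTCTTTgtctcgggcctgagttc
Rpl12, chr2:32961702-32961731, plus strand: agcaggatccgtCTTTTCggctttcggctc
Rpl37, chr15:5116603-5116632, plus strand: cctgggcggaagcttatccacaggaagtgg
Rps25, chr9:44407704-44407733, plus strand: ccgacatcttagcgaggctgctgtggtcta

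Of the 50 members 44 had a start in the RefSeq table, with 52 starts in all. A run with its C exactly at the start was found at 8 starts (15.4%), against 823 of 32851 starts (2.51%) over all genes. Counted from a C within 5 bases of the start, such a run was found at 21 (40.4%), against 18.3% of all starts. Annotated starts can miss the first base used in these cells, so the exact count is a description of the annotation. The letters CCGGAAG, which ETS family factors are known to bind, were found on either strand in 21 of the 52 windows of 300 bases (250 before to 50 from the start; 40.4%), against 8.86% of all windows. Changes over 12 h of ActD are given in log2. The 8 genes with a run at the start had medians of 0.05 in Cnot3KO and 0.24 in control cells. The 35 other members with a start that passed the filter had 0.08 and 0.14. Of the 8, Rpl14, Rps6 and Rps27 were read from dim sets, described below, and rose by 1.30, 0.78 and 0.72 in control cells. Rpl35, Rps18, Rpl38, Rplp2 and Rps10, read from bright sets, changed by 0.28, 0.20, 0.09, 0.07 and -0.02 there. Whether the higher control median goes with the run or with the dim sets was not tested.

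Intensities of the members fell into a bright and a dim range. For 35 of the 50 the set lay above the 99th percentile of all 45037 probe sets on every array, between 13128 and 32385, where the 99th percentile was 9930 to 10691 and the brightest set of an array 33652 to 35595. The other 15 lay between 9.99 and 12126, with Rpl22l1 at the top. An intensity depends on the probes, so it does not rank 1 gene against another. The 15 held 6 genes named as paralogs or binding partners, Rpl22l1, Rps4l, Rpl7l1, Rps19bp1, Rpl39l and Rpl3l, and 9 core proteins of the ribosome (Rpl12, Rpl14, Rpl27a, Rpl37, Rpl39, Rps6, Rps16, Rps25 and Rps27). For several of these core proteins brighter sets exist that also name pseudogenes. Sets of Rps6 shared in this way reached 29923, where its lone set stayed at or below 3108. Whether signal near the top of the array's range compresses differences was not tested.

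**Figure D1:**
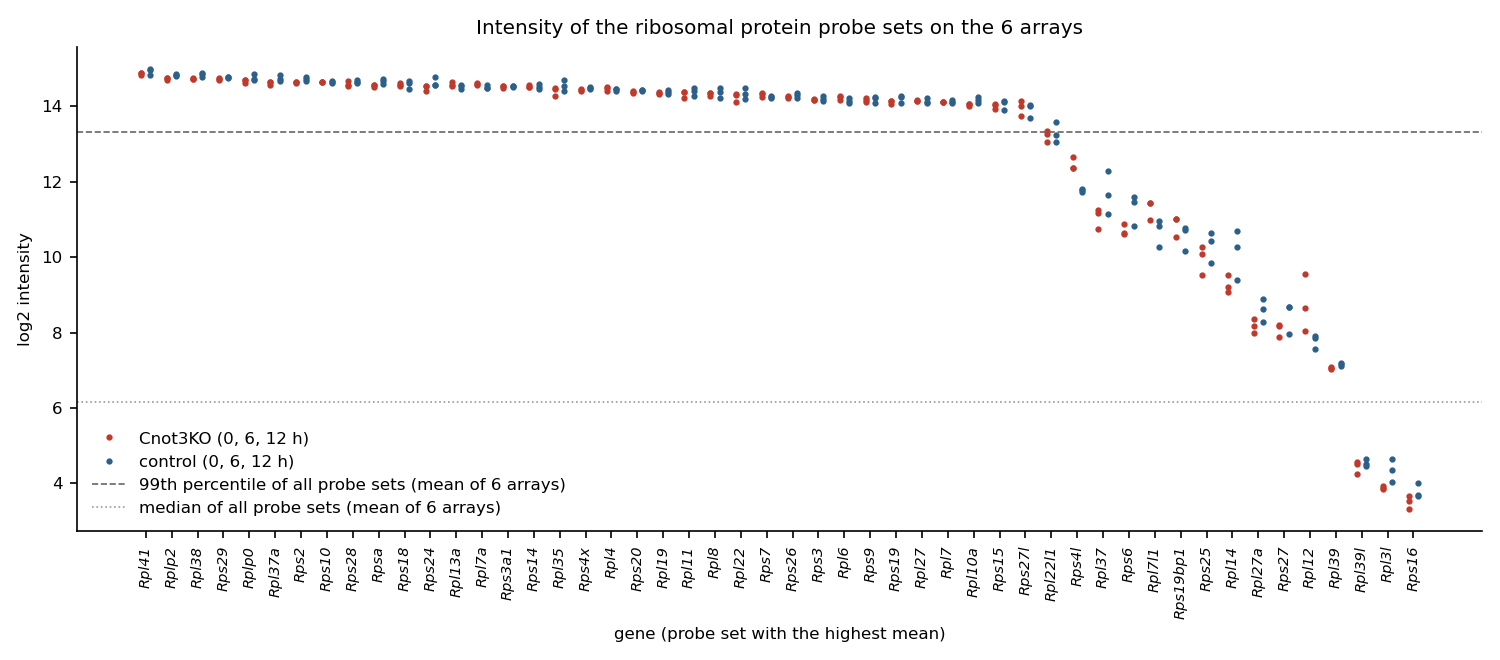
Log2 intensity of the 50 ribosomal protein probe sets, ordered by mean, on the 3 Cnot3KO arrays (red, left of each tick) and the 3 control arrays (blue, right), with the 99th percentile and the median of all probe sets as lines. The 35 sets above the upper line lie close together in both genotypes, and the 15 others spread downward to Rps16.

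Before ActD the ribosomal protein mRNAs stood at nearly the same level in both genotypes. The median difference of the 49 members, Cnot3KO minus control, was -0.03 (log2), beside 0.03 over all genes, and 29 of the 49 were lower in Cnot3KO, as were 7473 of all 16499 genes. Centred on the median of the genes kept, the members' median was -0.15 and that of all genes -0.09. The 35 bright members lay between -0.16 (Rps24) and 0.09 (Rpl7a). A pair of probe sets of the same member differed in this measure with an SD of 0.126 per set (19 members), and of the 35 differences those of Rps24 and Rpl35 (-0.15) were larger than this. Beyond 1.5-fold, 2 members were higher and 0 lower in Cnot3KO, where 6.71% of all genes were higher and 2.92% lower. A level in bulk RNA cannot tell fewer cells that express a gene from less RNA per cell.

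Both members beyond 1.5-fold were paralogs. Rpl7l1, a relative of Rpl7 that takes part in building the large subunit, measured 2012, 2749 and 2783 at 0, 6 and 12 h in Cnot3KO cells and 1228, 1974 and 1812 in control cells. All 3 values in Cnot3KO cells lay above those in control cells. Its other 2 sets were 0.03 and 0.25 higher in Cnot3KO at 0 h, against 0.71 for this one. Rps4l, a close copy of the small-subunit gene Rps4x, measured 5217, 5264 and 6418 in Cnot3KO cells and 3380, 3511 and 3548 in control cells, again without overlap. Rps4x itself measured 21807, 22263 and 21877 in Cnot3KO cells and 22570, 23227 and 22764 in control cells, with all 3 values in Cnot3KO the lower ones by at most 0.06.

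Over the 3 times together, 0 of the 49 members passed limma's test of the genotypes at an adjusted p of 0.05, where 0.988% of all genes did. At an unadjusted p under 0.05 there were 3 higher and 6 lower members, and 33.4% of all genes. The 6 include Rpl3l, which passed the filter only through a control array, so its lower value in Cnot3KO is no result. Rps4l was closest, 0.69 ± 0.14 higher in Cnot3KO (log2, SE, adjusted p = 0.055), and Rpl7l1 was 0.60 ± 0.14 higher (adjusted p = 0.061). Rpl14, a large-subunit protein, was lower by 0.86 ± 0.24 (estimate -0.86, adjusted p = 0.080). Of the 49 members 37 had an estimate below 0, and their median was -0.06, beside -0.03 over all genes, where 8701 of 16499 were below 0. The median difference at each time was -0.03 at 0 h, -0.05 at 6 h and -0.09 at 12 h. Over all genes it was 0.03, -0.05 and -0.03.

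After ActD the ribosomal protein mRNAs did not fall in either genotype, measured against everything else on the arrays. In Cnot3KO cells the median change over 12 h was 0.06 (log2) and 39 of 49 members were above 0, and in control cells it was 0.13 with 44 above 0. Over all genes the medians were 0.08 in Cnot3KO and 0.15 in control cells, with 9714 and 9719 of 16499 above 0. No member passed the test downward in control cells, where 14.5% of all genes did. None had an unadjusted p under 0.05 in that direction, where 3571 of 16499 genes did. The arrays were equalised, so a loss shared by all mRNAs would not show.

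The 35 bright members kept within a narrow range over 12 h. In Cnot3KO cells they changed by -0.11 (Rps28) to 0.41 (Rps27l), with a median of 0.05 and 29 above 0. In control cells the range was -0.08 (Rps28) to 0.34 (Rps27l), with a median of 0.09 and 32 above 0. The medians over all 343 probe sets this bright were 0.04 in Cnot3KO and 0.08 in control cells. These 343 include 62 lone and 68 shared ribosomal protein sets, so they are not a separate background. Rplp0, which anchors the stalk that binds elongation factors, shows the pattern with 25226, 26444 and 26599 in Cnot3KO cells and 26693, 27142 and 29473 in control cells. Rpl11, which joins the large subunit together with 5S rRNA, measured 18992, 21309 and 21112 in Cnot3KO cells and 19555, 21692 and 23034 in control cells. Rps19, a small-subunit protein mutated in Diamond-Blackfan anemia, measured 17121, 17974 and 18041 in Cnot3KO cells and 17478, 19794 and 19225 in control cells. The ranges of Rpl11 and Rps19 overlapped between genotypes, and those of Rplp0 did not, its highest value in Cnot3KO lying just below the lowest in control cells. Rps14, another small-subunit protein, ended below its starting value in control cells only in this set, with 23165, 23986 and 23315 in Cnot3KO cells and 23403, 24769 and 22227 in control cells. Its other lone set, nearly as bright, ended above its start in both, by 0.03 in Cnot3KO and 0.07 in control cells. Rpl38 of the large subunit, known for its part in the translation of Hox mRNAs, measured 27024, 26946 and 27232 in Cnot3KO cells and 28087, 29562 and 29993 in control cells, all above those of Cnot3KO by 0.06 to 0.14. Rpl13a, a large-subunit protein with a further role in an inflammatory translation block, was higher in Cnot3KO at each time, by 0.03 to 0.07. It measured 23610, 25338 and 24255 in Cnot3KO cells and 22560, 24074 and 23689 in control cells, and these ranges overlapped.

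**Figure D2:**
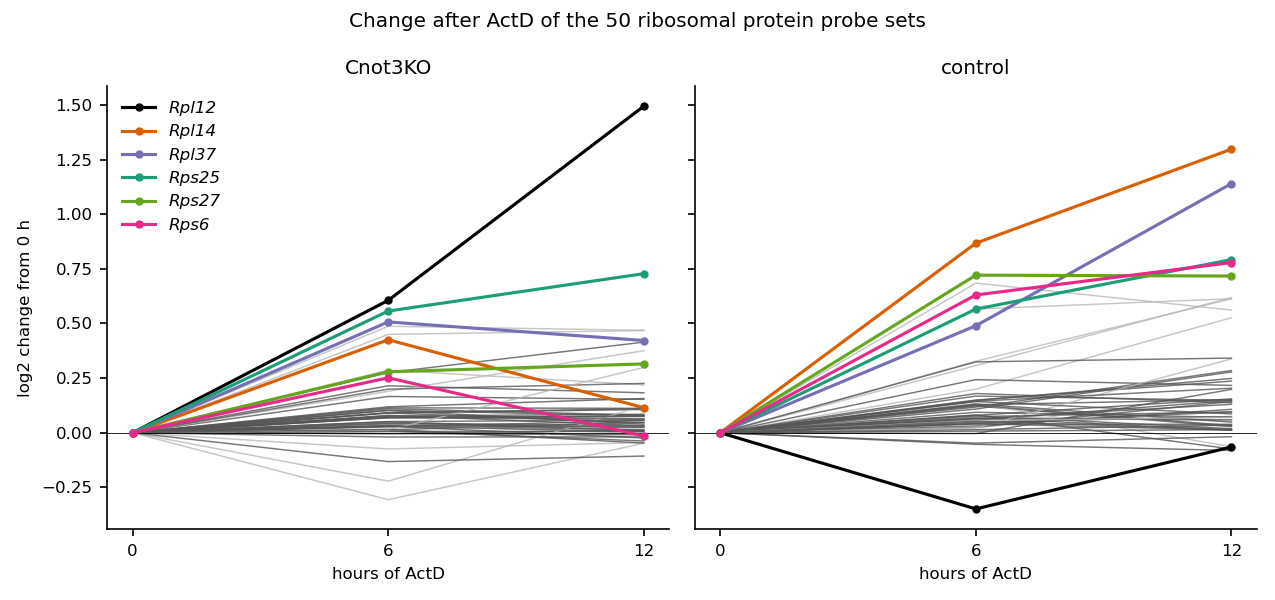
Log2 change from 0 h of the 50 members after 6 and 12 h of ActD in Cnot3KO (left) and control cells (right), with 6 members in colour, members above the 99th percentile in dark grey and the others in light grey. The highest dark line is that of Rps27l, at 0.41 in Cnot3KO and 0.34 in control cells, and the coloured lines of Rpl14, Rpl37, Rps6 and Rps27 reach higher in control cells while that of Rpl12 does so in Cnot3KO.

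The members with larger changes all came from the dimmer sets. In control cells 2 of 49 rose by limma's test of the slope on hours, where 7.68% of all genes did. Rpl14 measured 544, 730 and 589 in Cnot3KO cells and 677, 1235 and 1665 in control cells. The control values climbed at each time, a change of 1.30 ± 0.28 over 12 h (adjusted p = 0.029), while that in Cnot3KO was 0.11 ± 0.28. Rpl37, also of the large subunit, measured 1715, 2437 and 2298 in Cnot3KO cells and 2265, 3180 and 4991 in control cells. Its change in control cells was 1.14 ± 0.24 (adjusted p = 0.028), against 0.42 ± 0.24 in Cnot3KO cells. No member passed downward, and 8 had an unadjusted p under 0.05 upward, as had 3307 of all 16499 genes. The 8 include Rpl3l, which passed the filter through its control value at 12 h alone and so had to differ. A share of 2 in 49 is below that of all genes, so the count does not set the members apart.

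The next in order in control cells were Rps25, Rps6 and Rps27, all core proteins of the small subunit. Rps25, which some viral mRNAs need for their translation, measured 743, 1093 and 1230 in Cnot3KO cells and 926, 1371 and 1603 in control cells, with estimates of 0.73 ± 0.23 in Cnot3KO and 0.79 ± 0.23 in control cells that did not pass (adjusted p = 0.18 and 0.056). Rps6, the substrate of the S6 kinases, measured 1580, 1881 and 1564 in Cnot3KO cells and 1812, 2804 and 3108 in control cells. Only the control values stood higher at 12 h, by 0.78 ± 0.26 (adjusted p = 0.076). Rps27 measured 238, 288 and 296 in Cnot3KO cells and 249, 411 and 409 in control cells, a change of 0.32 ± 0.27 in Cnot3KO and 0.72 ± 0.27 in control cells (adjusted p = 0.62 and 0.098). Of the 14 members below the 99th percentile that passed the filter, the median change was 0.31 in Cnot3KO and 0.61 in control cells. The control change was the larger in 11 of these 14 and in 26 of the 35 bright members, as it was in 8721 of all 16499 genes. Both the 14 and the 11 include Rpl3l, which passed the filter only through its control value at 12 h.

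In Cnot3KO cells 0 of 49 members passed the test of the slope, where 0.364% of all genes did. Of the members 2 had an unadjusted p under 0.05, beside 17.6% of all genes. The larger of the 2 was Rpl12, a large-subunit protein near the factor-binding site. It measured 264, 402 and 743 in Cnot3KO cells and 241, 189 and 231 in control cells. Its change over 12 h was 1.49 ± 0.25 in Cnot3KO (adjusted p = 0.066) and -0.07 ± 0.25 in control cells. Over both genotypes 0 of 49 members passed for the 12 h change, where 6.76% of all genes did. At an unadjusted p under 0.05 there were 6, all upward, beside 29.8% of all genes in either direction.

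The difference in slope between genotypes, which asks whether an mRNA was lost at another rate without Cnot3, was not called for any member or any other gene (0% of all genes). At an unadjusted p under 0.05 there were 2 members, beside 17.7% of all genes. They were Rpl12, with 1.56 ± 0.36 (adjusted p = 0.18), and Rpl14, with -1.18 ± 0.40 (adjusted p = 0.23). The median over the members was -0.06, with 37 of 49 below 0, beside -0.04 over all genes, with 8721 of 16499 below 0. The 37 include Rpl3l, which passed the filter only through a control array.

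**Figure D3:**
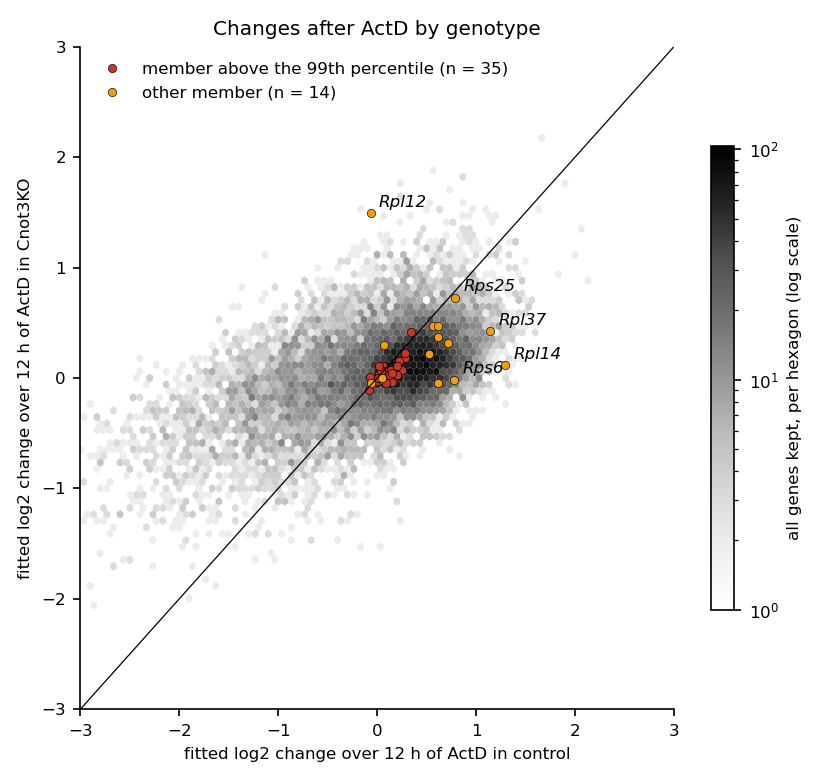
Fitted log2 change over 12 h of ActD in Cnot3KO (vertical axis) against control cells (horizontal axis), with all genes kept as grey hexagons (log colour scale) and members as points (red, 35 above the 99th percentile; orange, 14 others). The red points lie near 0 on both axes, Rpl14 and Rpl37 lie to the right and Rpl12 lies above.

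The sets behind these larger changes differed from brighter sets of the same genes. Rpl12 also had 2 sets that name pseudogenes besides it, at 16966 to 19468 in Cnot3KO and 17164 to 22768 in control cells, which changed by 0.03 and 0.05 in Cnot3KO and by 0.15 and 0.30 in control cells, so that the control change was the larger in both and the smaller in the lone set. Read from the brighter of these, the genotype difference of Rpl12 over the 3 times was -0.11 in place of 0.97. Rpl14 had 5 such sets, which changed by 0.03 to 0.09 in Cnot3KO and 0.14 to 0.50 in control cells, so that the control change was larger in all 6 sets of this gene. Read from the brightest of them the control change of Rpl14 was 0.14 (adjusted p = 0.60). The 4 brightest shared sets of Rps6 differed by at most 0.17 between genotypes at any time. They changed by 0.003 to 0.06 in Cnot3KO and by -0.09 to -0.001 in control cells, where the lone set rose by 0.78. The dimmer shared sets of Rps6 rose by 0.05 to 0.92 in control cells. A bright shared set of Rps25 changed by 0.13 in Cnot3KO and 0.17 in control cells, against 0.73 and 0.79 in its lone set. Rpl37 had no other set.

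A probe set is a short stretch near the 3′ end of an mRNA, and different sets of a gene can read different isoforms. Which transcript the dim sets of core proteins read was not tested. Of the 24 members with several lone sets, those of Rps24 and Rpl7l1 gave changes of opposite sign, each beyond 0.3. For Rps24, of the small subunit, the 12 h change in control cells ran from -0.70 to 0.54 over 6 sets, while the brightest gave 0.20. That of Rpl7l1 ran from -0.39 to 0.80 over 3 sets. The second set of Rps3, a small-subunit protein with a known role in DNA repair, measured 440, 548 and 450 in Cnot3KO cells and 539, 889 and 920 in control cells, while its main set stayed between 17993 and 19707 on all arrays. Rpsa, also known as a laminin receptor, measured 23985, 24244 and 23212 in Cnot3KO cells and 24522, 27072 and 26032 in control cells in its main set, and its other set lay under the 20th percentile on every array.

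**Figure D4:**
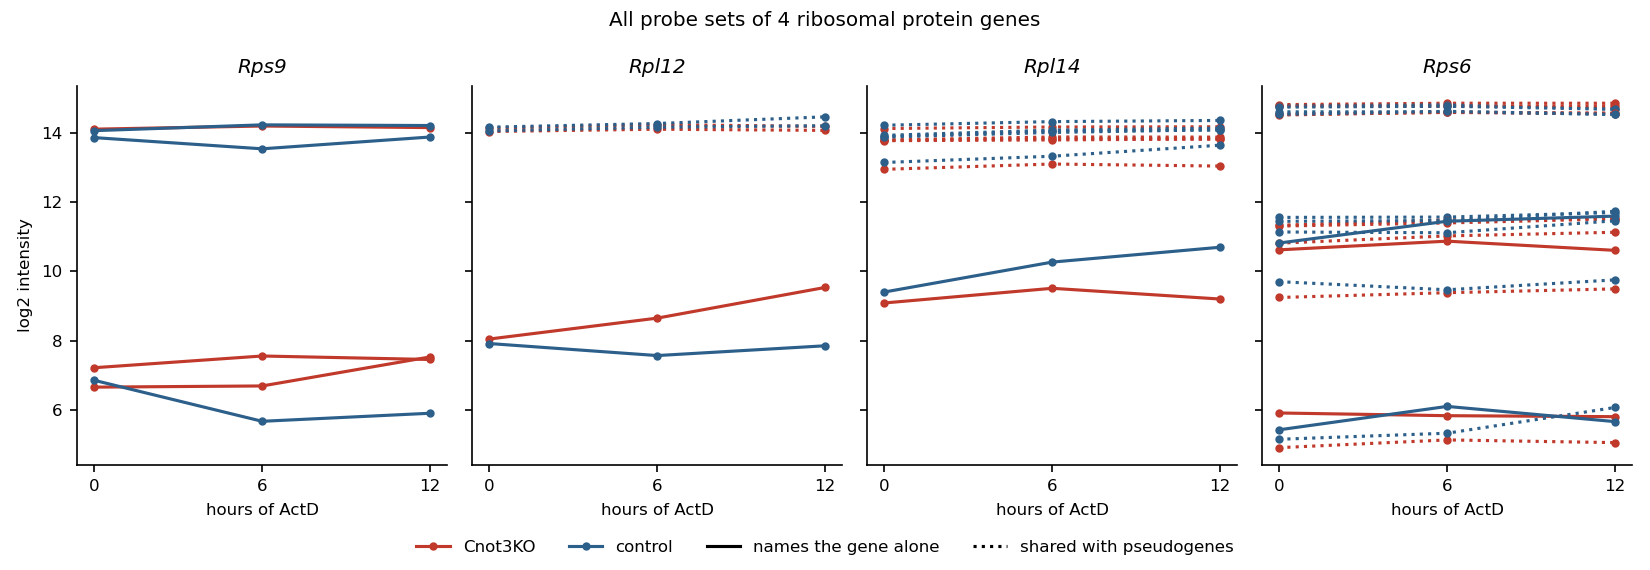
Log2 intensity at 0, 6 and 12 h of ActD of every probe set of Rps9, Rpl12, Rpl14 and Rps6 in Cnot3KO (red) and control cells (blue), with solid lines for sets that name the gene alone and dotted lines for sets shared with predicted genes or pseudogenes. Bright sets change little beside the lone sets of Rpl12 and Rpl14, the shared sets of Rpl14 climbing by 0.14 to 0.50 in control cells, and the second set of Rps9 is bright in control cells and near 7 in Cnot3KO.

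Rps9, a small-subunit protein, gave the widest disagreement. Its main set measured 17783, 18938 and 18354 in Cnot3KO cells and 17259, 19387 and 19126 in control cells, which overlap. Its second set measured 148, 188 and 175 in Cnot3KO cells and 15010, 11990 and 15196 in control cells. The second set was on average 82.4-fold lower in Cnot3KO (-6.37, log2), the lowest of all 45037 sets, and the only set of the array more than 64-fold apart in either direction. The remaining set was dim in both, with 101, 103 and 184 in Cnot3KO cells and 115, 50.7 and 59.6 in control cells. Rps9 lies on chromosome 7 beside Cnot3, with 4 protein-coding genes between them. Other genes within 250 kb of Cnot3 had 14 sets above the array median, of which 1 was over 2-fold apart (7.14%), against 9.71% of all such sets. That set read Tmc4, 1 of the 4 genes in between, at 277, 247 and 346 in Cnot3KO cells and 89.2, 121 and 115 in control cells. The cause of the loss of signal in the second Rps9 set was not tested. The bases its probes read and the strain background of the alleles beside Cnot3 were not analysed here, so the 82.4-fold value is one of this set's signal and cannot be read as a level of Rps9 mRNA. In the main set the differences were 0.04, -0.03 and -0.06 at 0, 6 and 12 h.

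The other paralogs are given beside their parent genes. Rps27l, the relative of Rps27, measured 13614, 16478 and 18147 in Cnot3KO cells and 13128, 16436 and 16636 in control cells. It was the highest of the bright members in change in both genotypes, 0.41 ± 0.21 in Cnot3KO and 0.34 ± 0.21 in control cells (adjusted p = 0.38 and 0.26), and its 3 sets gave 0.41 to 0.51 and 0.26 to 0.37. Rps27 had the larger change in control cells, as given above. Rpl22l1 measured 8453, 10308 and 9839 in Cnot3KO cells and 8420, 9669 and 12126 in control cells. Its parent Rpl22 measured 17734, 20582 and 20130 in Cnot3KO cells and 18708, 20293 and 22788 in control cells, with a control change of 0.28, against 0.53 for Rpl22l1. Rpl39l, a form known from testis, lay between 19.1 and 23.6 in Cnot3KO cells and 22.1 and 25.3 in control cells. Rpl3l, the form of striated muscle, lay between 14.5 and 15.2 in Cnot3KO cells and 16.5 and 25.3 in control cells, and all its values but that of control at 12 h lay under the 20th percentile of their arrays. Both are near the 20th percentile of the arrays, 19.7 to 22.4. Rps19bp1, which matches the symbol rule but is a binding protein of Rps19, measured 1480, 2074 and 2048 in Cnot3KO cells and 1142, 1691 and 1747 in control cells.

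Ribosome biogenesis factors, which make rRNA and assemble subunits, gave other values than the ribosomal proteins, and the difference between the lists was not tested. Of 49 ribosome biogenesis factors 18 were over 1.5-fold higher in Cnot3KO at 0 h and 0 lower, where 6.71% of all genes were higher and 2.92% lower. Their median difference was 0.40, beside 0.03 over all genes. In control cells 18 of the 49 fell after ActD and 1 rose by limma's test, where 14.5% of all genes fell and 7.68% rose. The median change was -0.69 in control and 0.09 in Cnot3KO cells. In Cnot3KO cells 0 were called, where 0.364% of all genes were, and 5 had an unadjusted p under 0.05, where 17.6% did. Nop58, a core protein of the small nucleolar particles that guide rRNA methylation, measured 2565, 2916 and 2298 in Cnot3KO cells and 2043, 1011 and 644 in control cells, with a control change of -1.67 ± 0.25 (adjusted p = 0.013). Nob1, which trims the end of 18S rRNA, measured 879, 911 and 824 in Cnot3KO cells and 510, 315 and 192 in control cells, with -1.41 ± 0.20 (adjusted p = 0.012). Over the 3 times 4 of the factors, Nop56, Polr1c, Ppan and Wdr43, were called higher in Cnot3KO, where 0.703% of all genes were. These calls stood at an adjusted p of 0.0499 and no gene was called without the filter. The difference in slope was not called for any of the 49.

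Larp1, the TOP-binding protein, measured 1474, 779 and 703 in Cnot3KO cells and 1858, 744 and 368 in control cells, and fell by 2.34 ± 0.28 over 12 h in control cells (adjusted p = 0.0099), with -1.07 ± 0.28 in Cnot3KO (adjusted p = 0.13). Of 17 regulators of TOP mRNAs 6 fell in control cells, where 14.5% of all genes did, and 0 were called in Cnot3KO, where 0.364% of all genes were. Of 23 other TOP and elongation genes, many of which are known to carry the tract too, 1 fell in control cells, Eif4b (-1.13 ± 0.21, adjusted p = 0.022), and their medians were 0.00 in Cnot3KO and 0.15 in control cells. Of 76 mitochondrial ribosomal proteins 7 fell and 2 rose in control cells, both shares below those of all genes (14.5% and 7.68%), with medians of 0.20 in Cnot3KO and 0.22 in control cells.

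**Figure D5:**
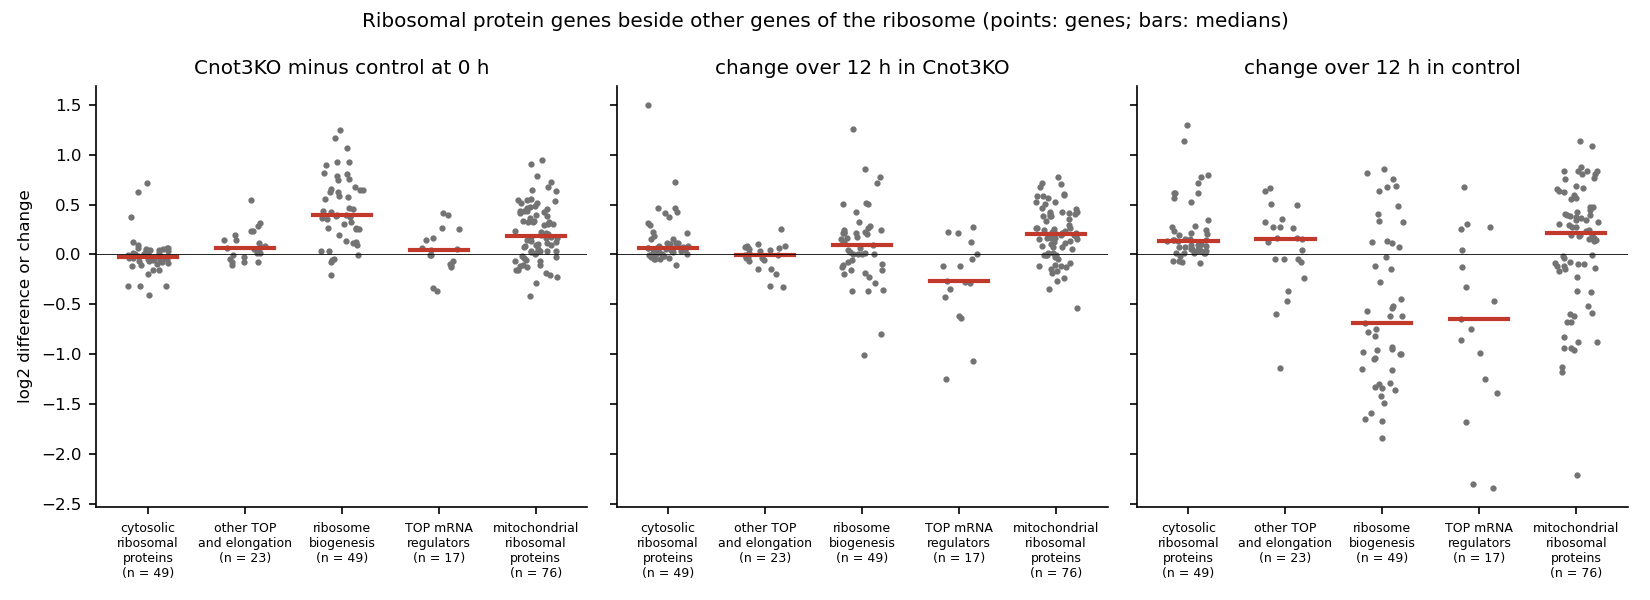
Log2 difference at 0 h (left) and log2 change over 12 h of ActD in Cnot3KO (middle) and control cells (right) of the genes of 5 lists, each point a gene and each red bar a median. The bars of the ribosomal proteins lie at -0.03, 0.06 and 0.13, and those of ribosome biogenesis at 0.40, 0.09 and -0.69.

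The label and cell markers were checked on the same arrays. The Cnot3 set measured 174, 174 and 146 in Cnot3KO cells and 296, 214 and 158 in control cells, with some overlap, and it was not tested whether this set reads exons that Cre removes. Of 8 hepatocyte markers measured 7 lay above the array median in both genotypes, and their summed intensity was 154853 to 161424 in Cnot3KO and 148974 to 165908 in control cells. Summed markers of stellate cells were lower in Cnot3KO (8731 to 13851, against 17543 to 18753 in control, 10 of 10 measured), and those of bile duct cells higher (34110 to 41341, against 19421 to 22716, 6 of 7 measured). No marker was at 0, which these values do not reach. Those of macrophages (5397 to 5638, against 6826 to 8639 in control, 9 of 9 measured) and of erythroid cells (5057 to 5616, against 7849 to 9190, 8 of 10 measured) were lower. So were those of megakaryocytes (3243 to 3764, against 4354 to 7243, 5 of 6 measured). Those of endothelial cells overlapped (588 to 1214, against 960 to 1841, 9 of 9 measured) and were lower at 0 h (1214 in Cnot3KO, 1739 in control). Leukocyte markers overlapped too (38651 to 45465, against 42830 to 44492, 8 of 9 measured), with 38651 in Cnot3KO and 43021 in control at 0 h. The part of these markers in the differences above was not tested.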

How the data were processed

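Total RNA was hybridised to Affymetrix mouse arrays, 1 array for each genotype and time. The authors computed 1 value per probe set by RMA, which equalises the arrays. Which RMA software they used is not given in the sources used here. Deposited intensities are on a linear scale, and log2 was taken here. There were 45037 probe sets on 6 arrays and 0 missing values. Through the platform annotation 34945 sets carried 1 symbol, 932 several and 9160 none, and 99.4% of identifiers matched RefSeq (GRCm38.p6). Genes above the 20th percentile on at least 1 array were kept. Genotype with time as a factor, and slopes on hours, were fitted with limma 3.58.1 in R 4.3.3 (2 residual degrees of freedom), with Benjamini-Hochberg adjustment over all genes at 0.05. Changes over 12 h are slope times 12 h. Both models were run on simulated data, with planted effects larger than those of the members in their main sets. Smaller effects were not simulated. The SD per set is that of the difference between 2 sets of a gene, both above the medians of all arrays, divided by the square root of 2, without Rps9.

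The members, the lists and the rule for named genes (called members, the 8 highest and lowest in each comparison, paralogs, disagreeing sets and members with well known roles) were chosen with earlier results of these data known. Alternatives covered the filter, the choice of set, the scaling, an offset of 16, an intensity trend and leaving out a time. Shared sets, bright members only, and leaving out 3 minor forms were added after seeing the data.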

Additional observations from a re-analysis of the deposited data

How the results depend on the processing

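The median difference of the members at 0 h kept its sign under all 11 alternatives. It moved from -0.03 to -0.15 when arrays were centred on the median of the genes kept (median centring) and to -0.10 with Gapdh. That of all genes moved from 0.03 to -0.09 and -0.03. The difference in slope called 0 genes of any kind under all 12, so its 0 calls among members do not set them apart. Genotype calls among members were 2 with the mean of the sets (10.02% of all genes) and 2 with the second set (9.53%). Both times these were Rps4l, and Rps9 through its second set. Gapdh centring called 2 (15.99% of all genes) and an intensity trend 2 (12.5%). Median centring called 8 (1 higher, 7 lower), where 31.2% of all genes were called. Without the 0 h arrays there were 7 (35.3% of all genes). In each of these settings the members' share was below that of all genes, so the counts do not set them apart. Over all genes the genotype calls were 163 and ran from 0 (no filter, among others) to 5809, so they depended on the setting. Calls for the 12 h change in both genotypes were 1 with the mean of the sets (10.2% of all genes), the second set (8.74%) or sets without a suffix (Rpl41, 8.51%). They were also 1 with Gapdh centring (13.0%) or an offset of 16 (5.73%), 2 with the trend (10.1%) and 5 with median centring (21.6%). Calls in control cells were 9 with median centring (43.6% of all genes), 7 with Gapdh (28.01%) and 5 with the trend (24.5%). With shared sets there was 1 (22.01% of all genes), and among bright members 0 (22.2%). The members' share was below that of all genes in each of these settings too. Over all genes the calls in control cells were 3667, or 2727 to 7196. In Cnot3KO cells median centring called 1, where 1.33% of all genes were called. Median centring moved the control change of all genes to 0.50 and that of the members to 0.48. Sets without a suffix, left for 26 members, gave a median change of 0.15 in Cnot3KO and 0.27 in control cells, beside 0.08 and 0.17 over all genes. Members beyond 1.5-fold at 0 h were 1 with median centring (8.98% of all genes) or Gapdh centring (8.96%), and 0 among bright members (9.63%). With the mean of the sets (6.75% of all genes) or the second set (9.11%), 1 was higher and 1 lower. With sets without a suffix 2 were higher and 1 lower (9.19% of all genes). With shared sets Rpl12 reversed to -0.11. The Gapdh set is shared with pseudogenes. Slope fits without 1 time were not run, as no residual degrees of freedom remain. No paired analysis was possible because each group has 1 array and time is already a term. The number of arrays limits the precision.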
